A study of Homo sapiens with 12 samples.

Results

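Peaks of the nuclear protein hnRNPK were examined on 44 genes of the transforming growth factor beta (TGF-beta) and bone morphogenetic protein (BMP) pathways, out of 20033 protein-coding genes of GENCODE release 44. The genes were taken by name, as ligands, ligand binding proteins, antagonists, receptors, SMAD proteins, ubiquitin ligases, nuclear co-repressors and the ID target genes, and all 44 were found in the annotation. The peaks came from ChIP-seq, in which DNA bound to a protein is pulled down with an antibody, here against hnRNPK, and sequenced, in HCT116, an established human colorectal carcinoma cell line. All cells overexpressed hnRNPK and carried in addition a construct that expressed the long noncoding RNA CRLM1 (CRLM1-OE), an empty construct (the empty control), or the antisense control construct. Each of the 3 groups had 2 replicates, each replicate an immunoprecipitated library and an input library, 12 samples in all, and the authors called 1 peak list per replicate. The design asked whether raising CRLM1 changes where hnRNPK sits on chromatin, and the pathway enters because the study names SMAD6, BMP7 and SMURF2 among the genes it followed. The study chose these genes from expression changes and followed their RNA and protein levels. It proposes that CRLM1 and hnRNPK regulate such genes directly or indirectly, and its text describes no hnRNPK peak on them.

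TGF-beta, activin and BMP ligands are secreted, and those of the TGF-beta branch are held in the matrix by latent TGF-beta binding proteins until released. A ligand brings type II and type I receptor kinases together, the type I receptor phosphorylates receptor-regulated SMADs, and these enter the nucleus with SMAD4 to act on target genes, of which the ID genes are the classic BMP targets. SMAD6, SMAD7 and the SMURF ubiquitin ligases damp the signal, as do the co-repressors SKI, SKIL, TGIF1 and TGIF2. In the gut epithelium the pathway restrains growth, and HCT116 cells are known for an inactivated TGFBR2, so that their canonical response to TGF-beta ligands is impaired. hnRNPK binds C-rich single-stranded DNA and RNA through its KH domains. The level of CRLM1, of hnRNPK or of any pathway transcript was not analysed here, so a peak below is a place on DNA and not a change in expression.

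The sequences that matter most are those under the highest-scoring pathway peaks, under the peaks beside the ID genes and under the peak of SMAD6, a gene the study names. The central 200 bases of 6 such peaks follow, in hg38 and on the strand of the gene, with capitals marking every run of at least 4 C or 4 G (CCCC or GGGG). They lie at chr20:31607410-31607609 (plus strand, past the 3′ end of ID1), chr2:8684717-8684916 (plus strand, past the 3′ end of ID2), chr1:23557116-23557315 (minus strand, past the 3′ end of ID3), chr19:40610291-40610490 (plus strand, an intron of LTBP4), chr15:66761791-66761990 (plus strand, an intron of SMAD6) and chr13:36890554-36890753 (minus strand, an intron of SMAD9). The first 3 come from CRLM1-OE replicate 2, those of LTBP4 and SMAD6 from CRLM1-OE replicate 1 and that of SMAD9 from empty control replicate 2.
ID1: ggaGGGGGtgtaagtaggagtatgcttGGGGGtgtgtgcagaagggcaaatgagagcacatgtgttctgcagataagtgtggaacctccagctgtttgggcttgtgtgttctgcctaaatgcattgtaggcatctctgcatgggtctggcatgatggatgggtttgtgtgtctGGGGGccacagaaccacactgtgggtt
ID2: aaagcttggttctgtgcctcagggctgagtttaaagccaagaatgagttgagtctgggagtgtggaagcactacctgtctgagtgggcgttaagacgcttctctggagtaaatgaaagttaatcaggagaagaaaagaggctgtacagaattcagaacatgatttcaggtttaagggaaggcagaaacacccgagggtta
ID3: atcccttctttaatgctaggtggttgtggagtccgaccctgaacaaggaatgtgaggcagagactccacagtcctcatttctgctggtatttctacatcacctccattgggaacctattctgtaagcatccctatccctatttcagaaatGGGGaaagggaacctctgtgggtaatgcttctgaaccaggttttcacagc
LTBP4: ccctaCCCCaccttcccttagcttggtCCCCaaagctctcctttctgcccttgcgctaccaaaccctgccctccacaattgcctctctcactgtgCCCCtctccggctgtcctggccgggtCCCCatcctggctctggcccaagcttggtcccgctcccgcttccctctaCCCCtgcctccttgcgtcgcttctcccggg
SMAD6: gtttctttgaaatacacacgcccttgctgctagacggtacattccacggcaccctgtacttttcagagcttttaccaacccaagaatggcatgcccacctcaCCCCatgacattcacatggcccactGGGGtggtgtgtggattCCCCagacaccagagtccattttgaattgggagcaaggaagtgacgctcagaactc
SMAD9: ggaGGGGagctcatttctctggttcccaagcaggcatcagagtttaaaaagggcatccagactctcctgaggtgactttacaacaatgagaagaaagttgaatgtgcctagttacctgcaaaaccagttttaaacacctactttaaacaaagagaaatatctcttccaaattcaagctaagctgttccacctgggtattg
The LTBP4 window held 5 such runs, all of C on the gene strand, and had a C content of 47.5%. The ID1 window held 3 runs, all of G, and its C content on the gene strand was 15.5%. The ID2 window held 0 runs, so the highest-scoring pathway peaks did not share this feature. Of the 23 peaks assigned to the pathway genes, 17 (73.9%) had such a run on either strand in their central 200 bases, against 59.0% of all 16214 peaks. Of the 35116 RefSeq promoters (GRCh38), 83.8% held a run in the 200 bases before the gene start, so a run of this length is common and marks no site.

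Under the gene rule, a gene carried a peak if any base of that peak lay between 5 kb before its start and its 3′ end. By this rule the CRLM1-OE lists placed a peak on 5 and 6 of the 44 genes. The empty control lists placed a peak on 2 and 2, and the antisense control lists on 1 and 6. The 6 lists held 4339, 3163, 1619, 2607, 2262 and 2224 peaks on chromosomes 1 to 22, X and Y, in the order CRLM1-OE, empty control and antisense control with replicate 1 before replicate 2. The reads behind each list are unknown, so these totals could not be scaled to depth. The share of the 44 genes with a peak was 11.4% in CRLM1-OE replicate 1 (95% Wilson interval 4.95 to 24.0%) and 13.6% in replicate 2 (6.40 to 26.7%), where 10.6% and 9.38% of all protein-coding genes had a peak. It was 4.55% in each empty control list (1.26 to 15.1%), against 3.5% and 5.71% of all genes in replicates 1 and 2. It was 2.27% in antisense control replicate 1 (0.402 to 11.8%) and 13.6% in replicate 2 (6.40 to 26.7%), against 5.7% and 5.84% of all genes. In 5 of the 6 lists the interval of the pathway genes included the share of all genes, and antisense control replicate 2 was the exception. This comparison took no account of gene length. The intervals cover counting error only.

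Long genes catch more peaks, and the pathway genes were long, with a median of 51.2 kb against 27.5 kb over all protein-coding genes. Each pathway gene was therefore set beside the 200 other protein-coding genes nearest to it in length and GC content. At the rates of these similar genes, 5.34 and 4.58 of the 44 genes would carry a peak in the CRLM1-OE lists, 1.84 and 3.01 in the empty control lists and 2.71 and 2.90 in the antisense control lists. The observed numbers exceeded these by 1.42 in CRLM1-OE replicate 2, 0.165 in empty control replicate 1 and 3.11 in antisense control replicate 2, and fell below them in the other 3 lists. In antisense control replicate 2 the similar-gene number, 2.90 of 44, lay as a share just inside the interval of 6.40 to 26.7%. The exception was therefore not kept against genes of similar length and GC content. No group stood on the same side of its similar genes in both of its lists. The pathway genes with a peak had a median length of 78.3 kb, and those without had 39.4 kb.

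**Figure D1:**
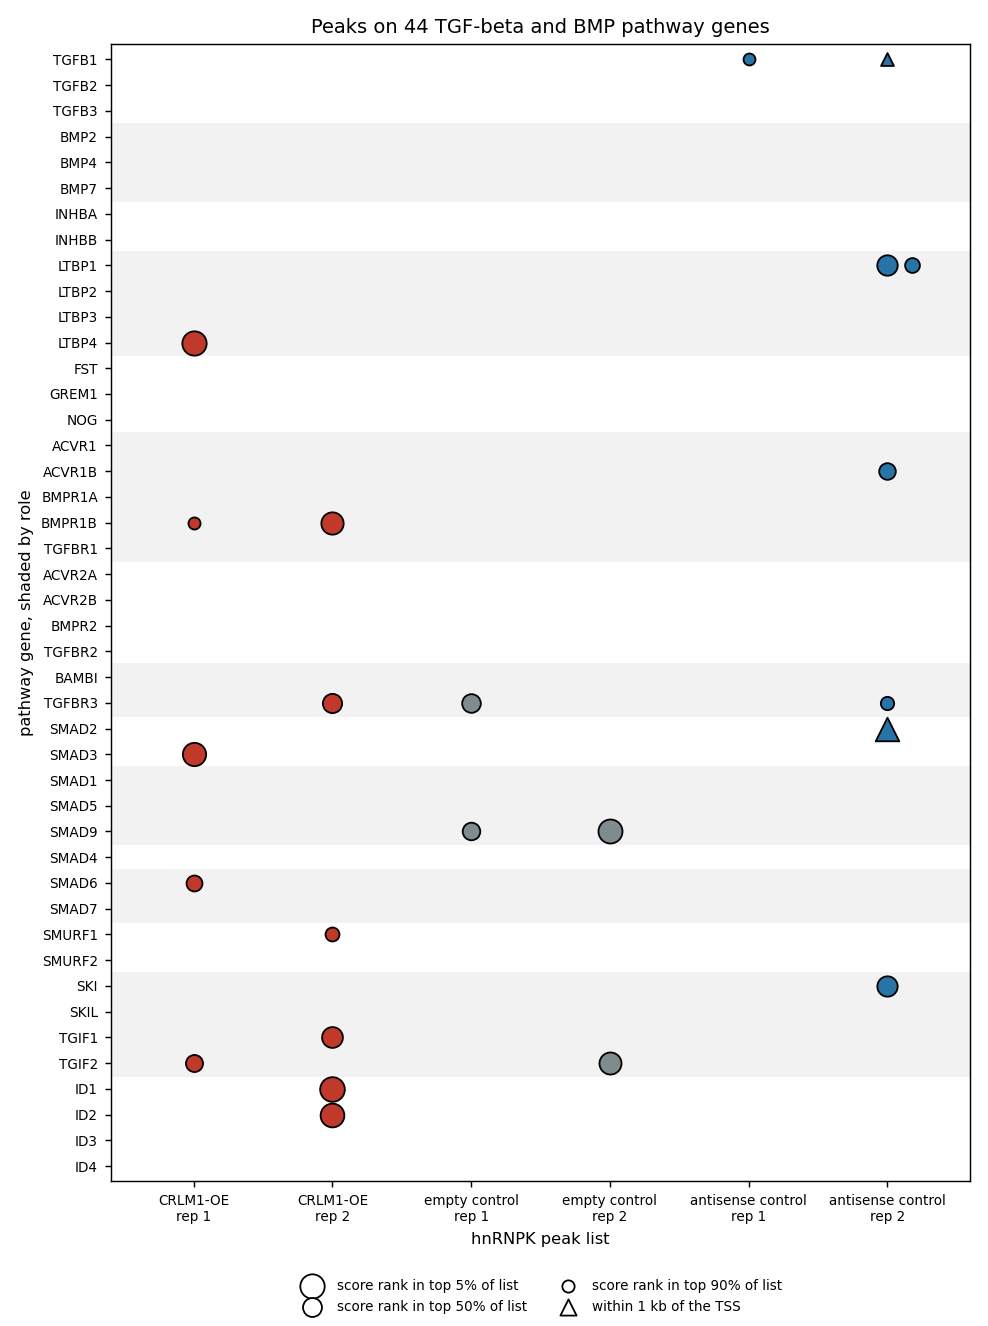
Peaks on the 44 pathway genes (rows, shaded by role) in the 6 hnRNPK peak lists (columns). Each marker is 1 peak on the gene body or 5 kb upstream, larger markers have a better score rank within their list, and triangles lie within 1 kb of the gene start. Of the 44 genes, 28 have no marker, and SMAD9, TGFB1 and BMPR1B are the genes with a marker in both lists of a group.

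In all, 16 of the 44 genes (36.4%) had a peak in any list, against 28.2% of all protein-coding genes and 14.6 of 44 by the rates of the similar genes. Of these 16 genes, 11 had a peak in 1 list, 4 in 2 lists and TGFBR3 in 3. Thus 5 of the 44 genes had a peak in 2 or more lists, where 8.35% of all protein-coding genes did. That share takes no account of gene length. The receptor-regulated SMADs (3 of 5), the co-repressors (3 of 4), the latent TGF-beta binding proteins (2 of 4) and the ID genes (2 of 4) supplied most of them. None of the 3 BMP ligands, 2 activin subunits, 3 antagonists and 4 type II receptors had a peak, nor did SMAD4. These counts per role are small and describe the lists at hand.

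Among the ligands, TGFB1, the founding ligand of the family, had a peak in both antisense control lists, but at separate places. In antisense control replicate 1 it was an intronic peak at chr19:41339892-41340484, with its midpoint 13.7 kb from the gene start and a score of 50.74, rank 2068 of 2262. In replicate 2 it was a peak in the 5′ untranslated region (UTR) at chr19:41353275-41353872, with its midpoint 0.348 kb from the start and a score of 51.05, rank 1934 of 2224. Both scores lie close to the lowest score deposited, 50, and the peak near the start also lies in TMEM91, an overlapping gene. TGFB2 and TGFB3 had no peak. BMP7, which the study names, had no peak in any list, and the nearest to its start lay 64.1 kb away, in antisense control replicate 2. BMP2 and BMP4 had none either, with their nearest peaks 35.6 and 78.7 kb from the start, both in CRLM1-OE replicate 1.

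LTBP4, a latent TGF-beta binding protein, held a high-ranking pathway peak of the CRLM1-OE lists. It lay in an intron at chr19:40609916-40610866 in CRLM1-OE replicate 1, with a score of 86.56, rank 236 of 4339 (top 5.44%). The peak was 17.0 kb from the start of the longest form of the gene but 0.170 kb from the start of a shorter protein-coding transcript. Replicate 2 had no peak on LTBP4, its nearest being 23.0 kb from the gene start. LTBP1, of the same family, had 2 peaks in antisense control replicate 2, at chr2:32942221-32942781 with its midpoint 4.45 kb upstream (score 51.91) and in an intron at chr2:33115596-33116286 (score 57.86). LTBP2 and LTBP3 had none. The secreted antagonists NOG, GREM1 and FST, which trap BMPs or activins, and the activin subunits INHBA and INHBB had no peak by the gene rule.

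Among the receptors, BMPR1B, a type I BMP receptor, was found in the CRLM1-OE lists of both replicates and in none of the controls. The peaks lay in introns at chr4:94887596-94888046 in replicate 1 (score 51.00, rank 3939 of 4339) and chr4:94893416-94894112 in replicate 2 (score 68.76, rank 741 of 3163), and they did not overlap. Of all protein-coding genes, 2.52% carried a peak in the CRLM1-OE lists of both replicates and 1.05% did so with no peak in a control list, so 1 of 44 genes is near the background. BMPR1B spans 400 kb, and of the 200 genes similar to it 25.5% and 29.0% had a peak in the respective CRLM1-OE lists. TGFBR3 (betaglycan), the co-receptor that presents TGF-beta ligands, had intronic peaks in 3 lists at 3 separate places, chr1:91804655-91805306 in CRLM1-OE replicate 2, chr1:91854982-91855534 in empty control replicate 1 and chr1:91832361-91833178 in antisense control replicate 2. Their scores were 58.18, 55.59 and 51.25. ACVR1B, a type I activin receptor, had an intronic peak at chr12:51968778-51969337 in antisense control replicate 2 (score 53.21). TGFBR1 and TGFBR2, the receptors for TGF-beta itself, had no peak within 327 and 186 kb of their starts in any list, and BMPR2 had none within 301 kb.

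Among the SMADs, SMAD9, a receptor-regulated SMAD of the BMP branch, had a peak in both empty control lists. The empty control lists placed overlapping peaks in an intron, at chr13:36889964-36890416 in replicate 1 (score 54.44, rank 964 of 1619) and chr13:36890317-36890990 in replicate 2 (score 89.36, rank 213 of 2607). Of the 23 pathway peaks, these 2 were the ones that overlapped a peak of another list, and they shared a small part of their width. The score in replicate 1 lies near the lowest score deposited, 50. The share of all peaks that overlap another list was not counted here, so nothing particular to SMAD9 is read from the overlap. Over all genes, 0.669% had a peak in both empty control lists and 0.884% in both antisense control lists, and SMAD9 and TGFB1 were the respective pathway genes. In the CRLM1-OE lists the nearest peak to the SMAD9 start lay 162 and 483 kb away.

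SMAD2 and SMAD3 carry the TGF-beta and activin signal, and each had a peak in its 5′ UTR. The SMAD2 peak lay at chr18:47930091-47931147 in antisense control replicate 2 and covered the gene start (score 69.50, rank 271 of 2224). The SMAD3 peak lay at chr15:67065185-67066508 in CRLM1-OE replicate 1 (score 70.67, rank 635 of 4339) and covered the start of a protein-coding transcript, with its edge 1.42 kb from the 5′ end of the gene. The GC content under these peaks was 77.5% and 73.6%. The study also names SMAD2, as a gene with a peak in its mapping of CRLM1 on chromatin. It describes the expression change of such genes with CRLM1-OE as low or negligible. SMAD6, an inhibitory SMAD and a gene the study names, had an intronic peak at chr15:66761694-66762088 in CRLM1-OE replicate 1, with its midpoint 59.7 kb from the gene start. Its score was 53.19, rank 3042 of 4339, and CRLM1-OE replicate 2 had no peak nearer than 197 kb to the start. Of the 200 genes similar to SMAD6, 17.5% had a peak in CRLM1-OE replicate 1. SMAD1, SMAD5, SMAD4 and SMAD7 had none.

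Of the ubiquitin ligases that degrade SMADs and receptors, SMURF1 had an intronic peak at chr7:99039740-99040340 in CRLM1-OE replicate 2 (score 52.18, rank 2575 of 3163), a stretch that also belongs to TRRAP. SMURF2, which the study names, had no peak, and the nearest lay 52.8 kb from its start, in empty control replicate 2. Among the co-repressors, TGIF1 had a peak at chr18:3449564-3450478 in CRLM1-OE replicate 2 that covered the start of a protein-coding transcript (score 61.95, rank 1129 of 3163), 38.0 kb into the longest form of the gene. TGIF2 had a peak in its 3′ UTR in CRLM1-OE replicate 1 (chr20:36592541-36593044, score 54.17) and an intronic peak in empty control replicate 2 (chr20:36586438-36587007, score 66.04), which the read-through gene TGIF2-RAB5IF shares. SKI had an intronic peak at chr1:2263375-2263860 in antisense control replicate 2 (score 57.63). Past the 3′ end of SKI, outside the gene rule, antisense control replicate 1 had 3 peaks, and the farthest, at chr1:2314796-2315637, ranked 58 of 2262 (score 93.47) and overlapped a peak of replicate 2 at chr1:2314777-2315670 (score 72.23, rank 224 of 2224). SKIL had no peak.

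The ID genes encode helix-loop-helix proteins that lack a DNA-binding region and hold back differentiation factors, and 3 of the 4 had a peak at the 3′ end in CRLM1-OE replicate 2. The ID1 peak at chr20:31606323-31608696 had the best score of the pathway, 155.46, rank 69 of 3163 (top 2.18%), and the largest width, 2374 bp. The gene itself spans 1.23 kb at chr20:31605283-31606515, and the peak began inside it and ran past its 3′ end. The ID2 peak at chr2:8684311-8685323 had a score of 84.65, rank 334 of 3163, and also began inside the gene and ran past its end. The ID3 peak at chr1:23556530-23557901 had a score of 65.35, rank 916 of 3163, and lay 24 bp past the 3′ end, so that it was not counted by the gene rule. ID4 had no peak nearer than 32.6 kb to its start. In CRLM1-OE replicate 1 the nearest peaks to the starts of ID1, ID2 and ID3 were 49.5, 459 and 114 kb away, and the control lists had none nearer than 83.8 kb. The ID gene peaks thus rest on 1 library.

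**Figure D2:**
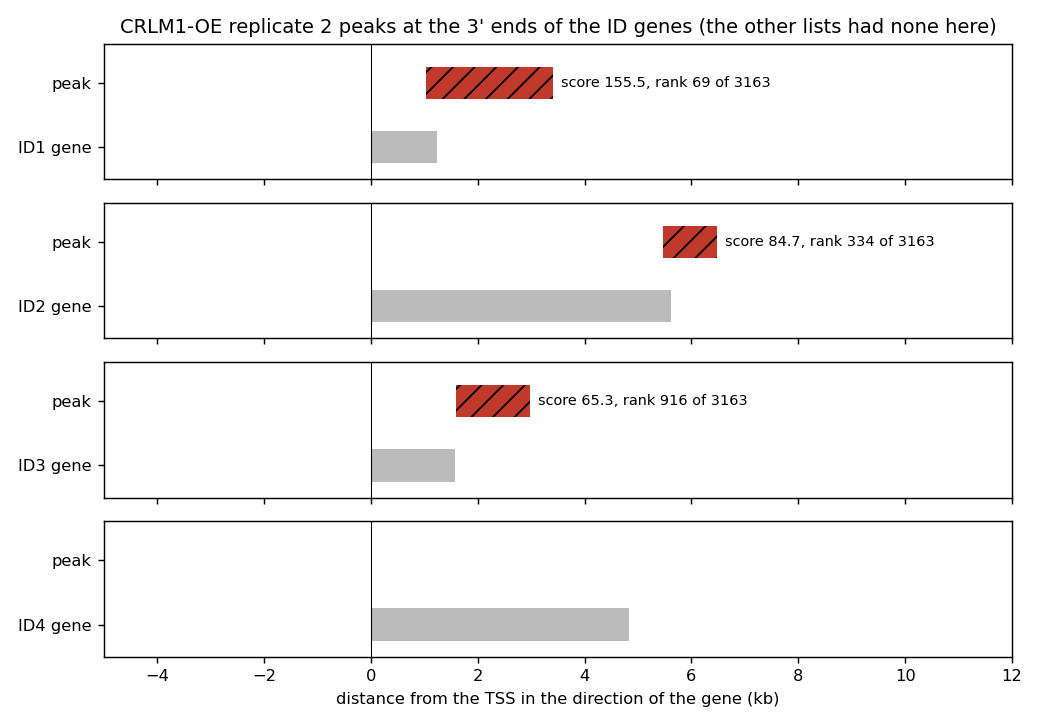
Position of the ID gene bodies (grey) and of the CRLM1-OE replicate 2 peaks (red, hatched), as distance in kb from the gene start in the direction of the gene. The peaks of ID1 and ID2 begin inside the gene near its 3′ end and run past it, and that of ID3 lies just past the end. Their scores are 155.46, 84.65 and 65.35 in this order, and ID4 has none.

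The 3′ ends were counted over all genes after these peaks had been seen. A peak within 1 kb of the 3′ end was found for 3 pathway genes (ID1, ID2 and ID3) in CRLM1-OE replicate 2, where 1.5% of all protein-coding genes had such a peak. CRLM1-OE replicate 1 had it at 1 gene (TGIF2; 1.1% of all genes) and antisense control replicate 1 at 1 gene (SKI; 0.519%). The empty control lists (0.2% and 0.359% of all genes) and antisense control replicate 2 (0.489%) had it at 0 pathway genes. Of 96 further pathway genes, described at the end, 0 had such a peak in either CRLM1-OE list. Empty control replicate 1 had it at 1 of these genes and the remaining control lists at 0.

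Gene starts were a rare place for the pathway peaks. A peak within 1 kb of the 5′ end of the gene was found for SMAD2 and TGFB1, both in antisense control replicate 2, and for 0 of the 44 genes in the other 5 lists. Over all protein-coding genes such a peak was found at 1.65% and 2.59% in the CRLM1-OE lists, 0.19% and 0.544% in the empty control lists and 0.839% and 0.889% in the antisense control lists. By the rates of genes with similar length and start GC content, 1.26 and 1.54 pathway genes would have had one in the CRLM1-OE lists. With 44 genes the shares of 0 could not be told from these low backgrounds. Over any list, 2 pathway genes against 5.73% of all genes had such a peak, with 3.73 genes at the rates of the similar genes. Both lists of a group had it at 0.349% of all genes with CRLM1-OE, at 0.02% with the empty and 0.0549% with the antisense construct, and at 0 pathway genes. The CRLM1-OE replicate 2 peaks of ID1 and ID3 lay outside 1 kb, with edges 1040 and 1600 bp from the gene start. The edge of the SMAD3 peak in CRLM1-OE replicate 1 lay 1422 bp from its gene start. A 2 kb window added SMAD3 in CRLM1-OE replicate 1 and ID1 and ID3 in replicate 2, against 2.1% and 2.96% of all genes. The empty control lists and antisense control replicate 1 stayed at 0, against 0.27%, 0.774% and 1.05% of all genes. Antisense control replicate 2 kept SMAD2 and TGFB1, against 1.12%. At the rates of the similar genes, 1.49 and 1.715 pathway genes would have had such a peak in the CRLM1-OE lists. The number was 0.72 in antisense control replicate 2.

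The count depended on which start was taken. When the starts of all protein-coding transcripts were allowed, LTBP4 and SMAD3 were added in CRLM1-OE replicate 1 and TGIF1 in replicate 2, against 2.37% and 3.22% of all genes. The empty control lists stayed at 0 (0.319% and 0.904% of all genes), as did antisense control replicate 1 (1.22%), while antisense control replicate 2 kept SMAD2 and TGFB1 (1.23%). All 5 of these peaks lay in GC-rich DNA, from 65.1% under LTBP4 to 77.5% under SMAD2.

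**Figure D3:**
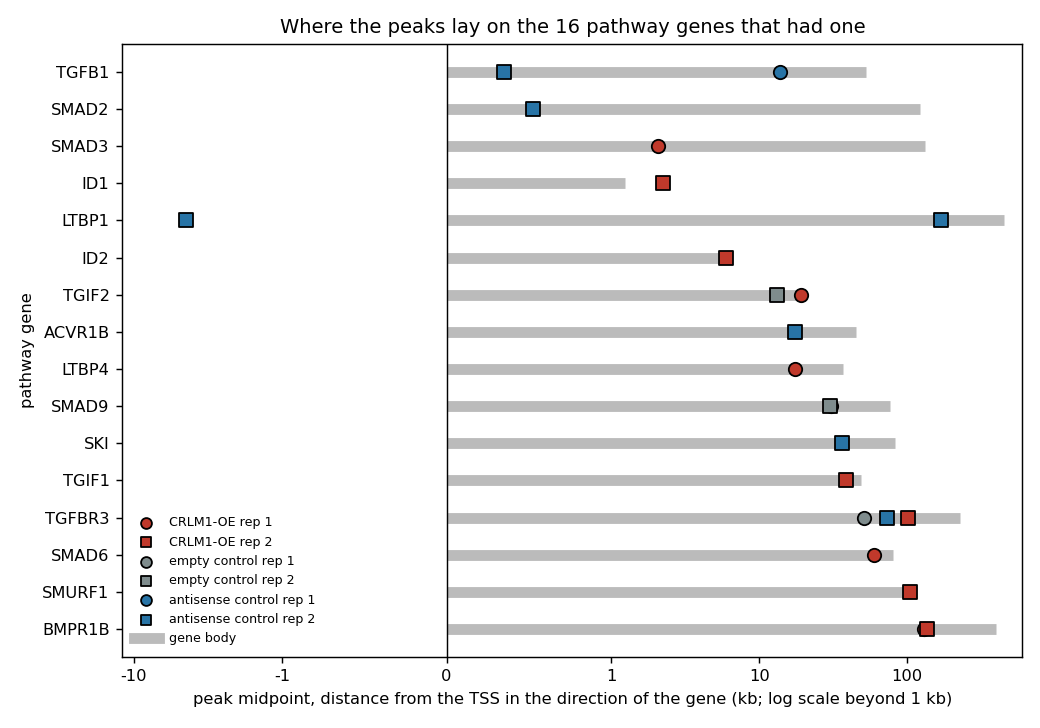
Midpoints of the peaks on the 16 pathway genes that had one, as distance from the gene start in kb in the direction of the gene (linear within 1 kb of the start and logarithmic beyond it), with the gene body in grey. Colour gives the group and marker shape the replicate. Of the 23 midpoints, 15 lie in introns, and those of SMAD2 (0.527 kb) and TGFB1 (0.348 kb) lie nearest to the start.

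Of the 23 pathway peaks, 15 had their midpoint in an intron, 4 in a 5′ UTR (SMAD2, SMAD3, TGIF1 and TGFB1), 1 in a 3′ UTR (TGIF2), 1 upstream (LTBP1) and 2 just past the gene (ID1 and ID2). The scores ran from 50.74 to 155.46 with a median of 57.63, and 14 of the 23 (60.9%) were under 60, as were 63.7% of all 16214 peaks. The peaks of ID1, LTBP4 and SMAD9 in empty control replicate 2 ranked within the top 10% of their list. The median pathway peak stood at 47.6% of its list by rank, near the middle.

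The groups were then compared over lists, since the list and not the gene is the replicate. The number of pathway genes with a peak was 5.50 ± 0.707 (SD, n = 2) with CRLM1-OE and 2.00 ± 0 (n = 2) with the empty control, a difference of 3.50 with no overlap of the groups. The exact two-sided permutation test gave p = 0.333, the smallest that 2 lists against 2 can give, so 0.05 was out of reach. With the 1000 highest-scoring peaks of each list, an equal list length, the counts were 2 and 3 with CRLM1-OE and 2 and 2 with the empty control, so that the groups overlapped and the difference was 0.50. Against the antisense control, at 3.50 ± 3.54 (n = 2), the difference was 2.00 (exact permutation p = 1) and the groups overlapped. Without antisense control replicate 1 this difference was -0.50, and without replicate 2 it was 4.50. Against the 4 control lists together, at 2.75 ± 2.22, the difference was 2.75 (exact permutation p = 0.400, smallest possible 0.133). At the equal list length the last 2 differences were 1.00 and 0.75. Each p-value places the observed difference among those from all assignments of these lists to the groups, and does not measure their spread.

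The groups also differed over all genes. The share of all protein-coding genes with a peak was 10.0% ± 0.868 (SD, n = 2) with CRLM1-OE and 5.19% ± 1.13 over the 4 control lists, and the CRLM1-OE lists were the longer ones. Relative to genes of similar length and GC content, the pathway genes stood 0.54 ± 1.24 genes above in the CRLM1-OE lists and 0.14 ± 2.12 above in the control lists, a difference of 0.40 genes (exact permutation p = 0.933). No difference between the groups that was particular to the pathway genes was detectable in these lists. For gene starts the same measure was -1.40 ± 0.194 with CRLM1-OE and 0.13 ± 0.861 in the control lists, a difference of -1.52 genes. No reading of the pathway genes is taken from its exact permutation p of 0.133, since 5 of the 6 lists held 0 of them at a start and the measure there is minus the number at the rates of the similar genes. That number was 1.26 and 1.54 in the CRLM1-OE lists and 0.080, 0.290 and 0.515 in the control lists with 0 pathway genes. With a window of 2 kb the difference was -0.14 (exact permutation p = 1), and with the starts of all protein-coding transcripts it was -0.15 (p = 0.933).

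**Figure D4:**
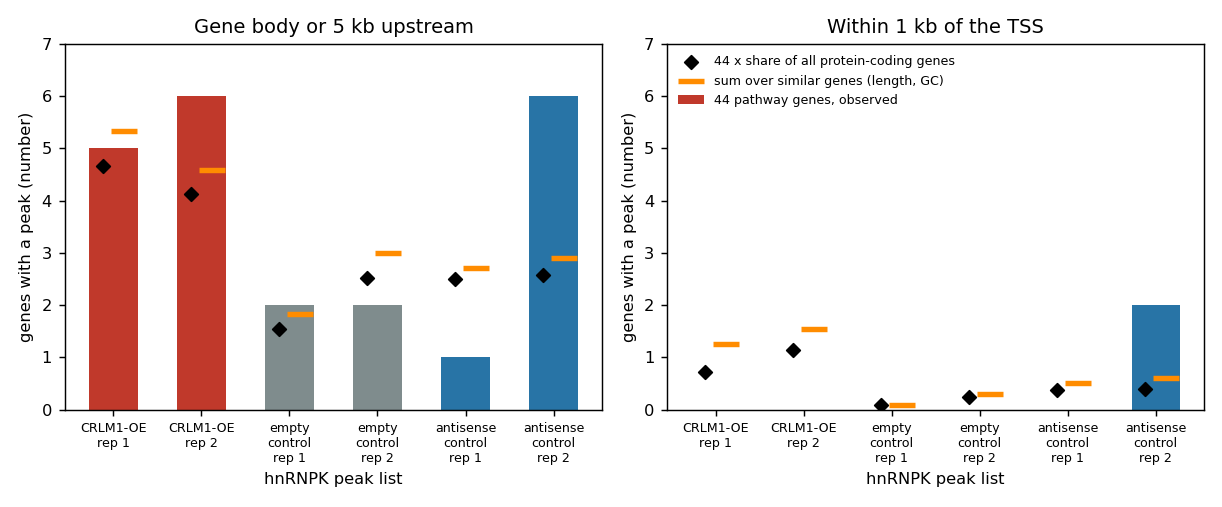
Number of pathway genes with a peak in each list (bars) by the gene rule (left) and within 1 kb of the gene start (right). Diamonds give 44 times the share of all protein-coding genes and orange dashes the number at the rates of genes of similar length and GC content. By the gene rule the CRLM1-OE bars (5 and 6) stand near both marks, and the antisense control replicate 2 bar (6) stands above them.

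Of the 16 pathway genes with a peak, 14 (87.5%) had it in CRLM1-OE lists alone or in control lists alone, against 78.6% of the 5656 protein-coding genes with a peak. CRLM1-OE lists but no control list had a peak on 8 genes (BMPR1B, ID1, ID2, LTBP4, SMAD3, SMAD6, SMURF1 and TGIF1), where 11.4% of all genes met the same rule. Control lists but no CRLM1-OE list had a peak on 6 (ACVR1B, LTBP1, SKI, SMAD2, SMAD9 and TGFB1), against 10.8% of all genes. Lists of both kinds had a peak on TGFBR3 and TGIF2, against 6.05% of all genes. Of the 8 genes seen with CRLM1-OE alone, BMPR1B was in both lists and the other 7 were in 1 list each. The median distance from a pathway gene start to the nearest peak was 196 and 383 kb in the CRLM1-OE lists, where over all genes it was 209 and 252 kb. In the controls it ran from 396 to 622 kb, against 403 to 790 kb over all genes.

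A wider list of 96 further genes of the pathway (other ligands, regulators of ligands, receptors, intracellular regulators, nuclear partners and targets) was counted by the same rules. By the gene rule 15 and 8 of them (15.6% and 8.33%) had a peak in the CRLM1-OE lists, 4 and 3 (4.17% and 3.13%) in the empty control lists and 9 and 7 (9.38% and 7.29%) in the antisense control lists. As with the 44 genes, these shares lay within a few percentage points of those over all genes in most lists, with the widest gap in CRLM1-OE replicate 1. Counted over the 6 lists, 30 of the 96 (31.3%) had one. Within 1 kb of the gene start, CRLM1-OE replicate 1 had a peak at 6 of the 96 genes (6.25%, against 1.65% of all genes) and replicate 2 at 1 gene (1.04%, against 2.59%). Antisense control replicate 1 had it at 1 gene (1.04%, against 0.839%) and the other 3 lists at 0. The 6 genes, named after their values were seen, were NBL1 (a BMP antagonist), MECOM (a nuclear partner that represses SMAD3), MAP3K7 (the kinase TAK1), AMH (anti-Müllerian hormone), JUNB and SNAI1 (both target genes). By the gene rule MECOM had a peak in 5 of the 6 lists, all but antisense control replicate 2, and the others in 1 list each. Of all protein-coding genes, 8.35% had a peak in 2 or more lists, and the share in 5 lists was not counted. MECOM was not set beside genes of similar length, so nothing particular to it is read from this count. None of the 96 had a peak at its start in both CRLM1-OE lists.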

How the data were processed

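hnRNPK ChIP-seq was measured in 6 immunoprecipitated and 6 input libraries. Per the study's methods and the processing notes, the eluted DNA was treated with RNase A, and the authors used cutadapt for trimming, Bowtie2 for alignment to GRCh38, and MACS2 to call each replicate against its own input. The deposited score of each peak was never under 50. Older MACS releases wrote a negative log10 p-value multiplied by 10, and on that scale this floor differs from the q-value limit in the methods, so the settings behind the lists are unclear. The score was used to rank peaks within a list. Depth is unknown, and 0 value columns were left unused.

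Peaks on chromosomes 1 to 22, X and Y were used, 16214 of the 16768 deposited. Genes came from GENCODE release 44 (hg38), where the gene start is the 5′ end of the longest gene extent. Overlap was at least 1 bp. Python 3.11.15, numpy 2.4.6, pandas 2.3.3, scipy 1.17.1, pysam 0.24.0 and matplotlib 3.10.9 were used. The code was tested on simulated data. Groups were compared by exact two-sided permutation over lists, in 3 comparisons by each rule and 2 relative to similar genes, all unadjusted. Alternatives covered score filters, windows, the overlap, the similar genes, left-out lists and pairing by replicate number.

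The pathway genes and lists were chosen with earlier results of these data known. Described in detail were SMAD6, BMP7 and SMURF2, genes with a peak near the start, in both lists of a group or in 3 lists, and the 10 best-ranked peaks. The remaining genes with a peak were added for completeness.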

Additional observations from a re-analysis of the deposited data

How the results depend on the processing

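Peak scores near the calling limit, unknown depth and 2 lists per group limit these results. Of 114 values recomputed for the group comparisons and joint counts, 97 kept their direction or count. These include the values paired by replicate number, which equal the main ones by construction. No p could reach 0.05 in any setting. The smallest possible was 0.333 for 2 lists against 2 and 0.133 for 2 against 4, and leaving lists out raises it. With the 1000 highest-scoring peaks of each list the gene rule difference fell from 3.5 to 0.5 against the empty control, from 2 to 1 against the antisense control and from 2.75 to 0.75 against the 4 control lists, and with the peak midpoint in the window it was 2.5, 1 and 1.75. The gene rule difference ran from 3 to 4 against the empty control, from -0.5 to 4.5 against the antisense control (-0.5 without its replicate 1) and from 2.17 to 3.83 against the 4 control lists when each list was left out in turn. The difference within 1 kb of the gene start ran from 0 to 0, -2 to 0 and -0.667 to 0 in the same order, the upper values without antisense control replicate 2. With a window of 2 kb it was 1.5, 0.5 and 1, and with the starts of all protein-coding transcripts also 1.5, 0.5 and 1, so its direction turned against the antisense control and the 4 control lists. Relative to similar genes, the gene rule difference was -0.0275 with 10 kb upstream and -0.52 with the peak midpoint in the window, and ran from -0.474 to 1.39 with lists left out (-0.474 without CRLM1-OE replicate 2 and -0.212 without antisense control replicate 1). The start difference, -1.52, ran from -1.74 to -1.10 with lists left out and was -0.768 with the 1000 highest-scoring peaks, -0.14 with a window of 2 kb and -0.154 with the starts of all protein-coding transcripts. The count of pathway genes in both CRLM1-OE lists fell from 1 to 0 with peaks above the median score and with the 1000 highest-scoring peaks, as did the count in both and in no control list. Of 90 values for the number of lists in which a named gene had a peak, 18 moved. SMAD6, SMURF1, TGFB1 and ACVR1B had 0 lists under either score filter, and ID1 and ID2 had 0 when the peak midpoint had to lie in the window. Pairing lists by replicate number leaves every difference of means unchanged by construction, so its values (3.5, 2 and 2.75 for the gene rule) are no check. Deviations of same-numbered lists correlated at -0.018, -0.004 and -0.011. With 2 sparse lists per group these values cannot show whether same-numbered lists were prepared together, and the labels give only the number.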
